A study of Mus musculus with 4 samples.

Results

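The cells described here are mouse spermatids high in Dyrk4 and Cd46, 1200 of the 27060 testis cells of the series. In each of 2 libraries, A0 and A10, cells were ranked by the mean of their deposited values over Dyrk4, Tmco5b, Lrrd1, Flt1, Slc36a3 and Cd46, and the first 600 were taken, 600 of 8941 in A0 and 600 of 9682 in A10. The members were thus selected on measured values, so their levels of these 6 genes are a description with no test. All cells came from male ICR mice, an outbred stock, dosed by gavage from weaning age, and testes of several mice were pooled before capture into 1 library per group. A0 received vehicle and A10 received alginate oligosaccharides (AOS) at 10 mg/kg. B0 received busulfan, an alkylating drug that kills germ cells, and BA10 received busulfan and then AOS at 10 mg/kg. Testes were dissociated and sequenced as single cells by 10x Genomics 3′ kits, which tag every molecule with a unique molecular identifier (UMI). With 1 library per group no difference could be tested against animals, so no p-value is given, and intervals are exact 95% intervals that cover counting error only. In these pools of animals, an effect of AOS and a difference between the 2 groups of mice or 2 preparations cannot be told apart.

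Spermatids are the haploid cells that follow meiosis. They first build the acrosome, the enzyme-filled cap that meets the egg, then lengthen, grow a tail and replace their histones with transition proteins and protamines. Transcription stops while this goes on, so many messages needed later are made in round spermatids and stored. Of the 6 selecting genes, Dyrk4 encodes a kinase of the dual-specificity DYRK family, Flt1 encodes a receptor for vascular endothelial growth factor, Slc36a3 belongs to a family of proton-coupled amino acid transporters, and Cd46 encodes a complement regulator that in rodents is found mainly on the inner acrosomal membrane of sperm. Tmco5b encodes a transmembrane coiled-coil protein and Lrrd1 a leucine-rich repeat protein.

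The 6 genes lie apart in the genome (build GRCm38, GENCODE M21). Dyrk4 is at chr6:126876020-126921839 on the minus strand, Tmco5b at chr2:113285732-113297190 on the plus strand and Lrrd1 at chr5:3845173-3866596 on the plus strand. Flt1 is at chr5:147561604-147726011, Slc36a3 at chr11:55124815-55151708 and Cd46 at chr1:195036826-195092249, all on the minus strand. All 6 matched a promoter of RefSeq (GRCm38.p6, 250 bases before to 50 bases after the annotated start). The letters searched on both strands were the cAMP response element (CRE, TGACGTCA), at which the spermatid activator CREM binds, its core TGACGT, which lies within the CRE, and GTTGCC, a core bound by RFX factors. The CRE was found in 1 of the 6 promoters, that of Flt1, 81 bases before the start. The RFX core was found in 2, 190 bases before the start of Tmco5b and 3 bases after the start of Slc36a3. The 250 bases before the start are shown for the genes with a match there, Flt1 and Tmco5b, and for the genes that name the cells, Dyrk4 and Cd46, which had no match. Each is written 5′ to 3′ on the strand of the gene, in lower case with the match in capitals, from chr5:147726012-147726261 (minus), chr2:113285482-113285731 (plus), chr6:126921840-126922089 (minus) and chr1:195092249-195092498 (minus).
Flt1: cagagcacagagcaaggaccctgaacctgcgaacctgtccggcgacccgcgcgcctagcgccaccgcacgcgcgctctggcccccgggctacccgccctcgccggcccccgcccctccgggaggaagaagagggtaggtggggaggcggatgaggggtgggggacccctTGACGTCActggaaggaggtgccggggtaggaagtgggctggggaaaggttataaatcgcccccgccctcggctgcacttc
Tmco5b: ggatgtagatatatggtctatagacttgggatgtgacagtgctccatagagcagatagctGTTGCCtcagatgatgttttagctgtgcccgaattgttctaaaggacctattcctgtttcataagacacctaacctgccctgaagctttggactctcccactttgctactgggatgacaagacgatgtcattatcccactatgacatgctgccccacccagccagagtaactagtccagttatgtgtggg
Dyrk4: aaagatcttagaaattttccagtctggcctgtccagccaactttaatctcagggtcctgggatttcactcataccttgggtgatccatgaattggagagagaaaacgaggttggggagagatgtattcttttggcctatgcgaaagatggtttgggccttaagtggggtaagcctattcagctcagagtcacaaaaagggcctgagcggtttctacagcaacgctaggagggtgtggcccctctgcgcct
Cd46: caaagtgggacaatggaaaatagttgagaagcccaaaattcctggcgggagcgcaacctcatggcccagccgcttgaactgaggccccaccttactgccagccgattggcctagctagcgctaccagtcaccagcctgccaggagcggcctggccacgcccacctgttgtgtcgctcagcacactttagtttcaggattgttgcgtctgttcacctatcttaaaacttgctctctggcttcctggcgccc

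A match is a description, not a site, and counting of 3′ ends does not show which start the cells used. Of 1255 other genes that were higher in members in both libraries by the measure described further on, 951 matched a promoter. Of these 951 genes, 33 (3.47%) held the CRE, 113 (11.9%) its core and 170 (17.9%) the RFX core. Over all 13761 genes of the table with a promoter the shares were 2.99%, 11.0% and 15.03%. Of the 169 genes higher in members in both libraries against cells at percentiles 65 to 85 of the order described further on, 131 matched a promoter. Of these, 2 (1.53%) held the CRE, 12 (9.16%) its core and 18 (13.7%) the RFX core. These shares are somewhat below those of the table but rest on few genes. Over all 27025 genes with a promoter of this length the shares were 2.03%, 8.37% and 14.1%.

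The selecting genes were low in most cells and abundant in the members. Levels are given as summed UMIs per 1000000 UMIs of the set of cells (CPM), separately for each library. Dyrk4 stood at 137 CPM (interval 131 to 144) in A0 members and 9.95 CPM (9.43 to 10.5) in the other cells of A0. In A10 it stood at 116 CPM (110 to 123) and 7.84 CPM (7.37 to 8.33). Tmco5b was at 236 CPM in A0 members against 18.8 CPM in other cells, and at 219 CPM against 15.4 CPM in A10. Lrrd1 was at 161 CPM against 18.1 CPM in A0 and at 163 CPM against 15.9 CPM in A10. All 3 were at 2.66 CPM or less in the cluster richest in early meiosis genes, whose median of UMIs per cell was 11952 in A0 and 11007 in A10.

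Flt1 was at 73.1 CPM in A0 members against 8.04 CPM in other cells, and at 71.6 CPM against 7.13 CPM in A10. Slc36a3 was at 144 CPM against 12.2 CPM in A0 and at 122 CPM against 8.49 CPM in A10. Cd46 was at 80.7 CPM against 4.76 CPM in A0 and at 70.9 CPM against 4.04 CPM in A10. These differences were set by the choice of the members. Even so, 1 UMI or more of Cd46 was seen in 76.3% of A0 members and 65.8% of A10 members, and of Flt1 in 71.3% and 62.2%, and a message not seen in a cell may still have been present. In the early meiosis cluster Cd46 was seen in 1.01% of A0 cells and 1.18% of A10 cells, and Flt1 in 1.01% and 3.92%. All 6 genes were seen in 246 A0 members, exactly 5 in 262, 4 in 89 and 3 in 3. In A10 the numbers were 161, 229, 167 and 41, with 2 members holding 2 genes each. Among the other cells 216 in A0 and 98 in A10 had at least 5 of the 6 genes, and 61.9% and 64.4% had none.

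The limit of 600 cells fell within a continuous range of scores. In A0 the last member scored 0.61789 and the first cell outside 0.61779, with 136 other cells within 10% below the limit. In A10 these scores were 0.5361 and 0.5351, with 126 other cells within 10% below. The highest scores were 1.25 and 1.32, and the median of the other cells was 0 in both. Members held more UMIs than other cells, with medians of 16230.5 against 12380 in A0 and 13273.5 against 10708 in A10. After every cell was thinned to 5000 UMIs, members held fewer genes, with medians of 2008 against 2157 in A0 and 1982 against 2141 in A10. A doublet caller (Scrublet) marked 3.17% of A0 members and 8.42% of other A0 cells, and 6% of A10 members and 8.83% of other A10 cells. The libraries A0 and A10 shared 135 barcodes. Of the members, 8 in A0 and 13 in A10 had such a barcode, and no barcode was a member in both.

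The label of spermatid was checked against cell type markers, which did not all go one way. The round spermatid genes Acrv1, Spaca1 and Izumo1, which encode acrosomal proteins, were at 343, 746 and 267 CPM in A0 members against 138, 359 and 88.1 CPM in other cells. Of the same list, Zpbp2 (180 against 736 CPM) and Dpy19l2 (23.4 against 93.2 CPM) were lower in members, and Zpbp was at 482 against 536 CPM. The protamine and transition protein genes Prm1 and Tnp1 were at 16124 and 6913 CPM against 11971 and 4517 CPM. Sycp3, of the synaptonemal complex of meiosis, was at 21.03 CPM against 180 CPM. Syce2 and Syce3, of the same complex, were at 736 against 388 CPM and at 264 against 186 CPM, and the meiotic cohesin gene Smc1b was at 270 against 313 CPM. The premeiotic gene Stra8 was at 0.49 CPM against 1.34 CPM in A0 and at 1.76 CPM against 1.42 CPM in A10. Summed over each list, Leydig cell genes (8 genes, 0 of them at 0) were at 6.60 CPM in A0 members and 5.39 CPM in A10 members, against 9.46 and 13.1 CPM in other cells. Sertoli cell genes (11 genes, Amh and Fshr at 0 in both libraries) were at 33.3 and 31.6 CPM against 22.9 and 27.4 CPM. Macrophage genes (9 genes, Csf1r and C1qc at 0 in A10) were at 16.9 and 20.95 CPM against 13.7 and 11.4 CPM. Endothelial genes (11 genes, 4 at 0 in A0 and 2 in A10, Emcn in both) were at 11.2 and 11.0 CPM against 8.66 and 7.63 CPM. Peritubular myoid genes (7 genes, 0 of them at 0) were at 645 and 618 CPM against 294 and 258 CPM, of which Actg2 made up 635 and 610 CPM, while Acta2, the defining smooth muscle actin, was at 2.12 and 1.27 CPM. The Leydig marker Insl3 was at 0.897 and 0.294 CPM in members and the Sertoli marker Sox9 at 1.79 and 0.685 CPM, and C1qb made up 13.5 and 16.5 CPM of the macrophage sum. The part of such cells or of free RNA in the member levels was not tested.

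Where the members lie among germ cells was read from an order of the cells of both libraries, a diffusion pseudotime that starts at the cell highest in early meiosis genes and was built without the 6 selecting genes. Its early part is not resolved, since the cluster richest in early meiosis genes had a median percentile of 30.7, after the cluster with Cdk1 among its leading genes (6.71). Other genes that move with these 6 did enter it, so it is no independent test. Members lay mostly in its later part. Given as the percentile among all cells of the library, their median was 76.2 in A0 and 75.3 in A10, with the middle 50% between 73.6 and 78.5 in A0 and between 72.9 and 77.4 in A10. Between percentiles 65 and 85 lay 569 of the 600 A0 members (94.8%) and 553 of the 600 A10 members (92.2%). They made up 31.8% and 28.6% of all cells there. In an order by the first principal component they were more spread, with the middle 50% between 74.9 and 88.9 in A0 and between 74.1 and 90.1 in A10.

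Along this order the 6 genes had their highest levels in one of 2 neighbouring bins. In bins of 5 percentiles, Flt1 was highest at 70 to 75 in both libraries (67.3 CPM in A0, 62.4 CPM in A10), and so was Lrrd1 (137 and 134 CPM). For Lrrd1 in A0 the next bin, at 130 CPM, was within counting error of it. Tmco5b, Slc36a3 and Cd46 were highest at 75 to 80, at 216, 131 and 75.8 CPM in A0 and at 175, 95.4 and 63.2 CPM in A10. Dyrk4 was highest at 75 to 80 in A0 (117 CPM) and stood at 86.1 and 84.7 CPM in the bins from 70 and from 75 in A10, within counting error of each other. Spam1, which encodes a sperm hyaluronidase, was highest before this, at 60 to 65, and stood at 14.7 CPM in A0 and 13.5 CPM in A10 at 75 to 80. Prm1 stood at 7405 CPM in A0 at 65 to 70, at 22552 CPM at 75 to 80 and at 47441 CPM at 80 to 85. In A10 it stood at 9072, 38226 and 69340 CPM in the same bins. From 75 to 80 to the next bin Cd46 went from 75.8 to 35.3 CPM in A0 and from 63.2 to 16.6 CPM in A10. The 6 genes thus peaked after Spam1 and before Prm1.

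**Figure D1:**
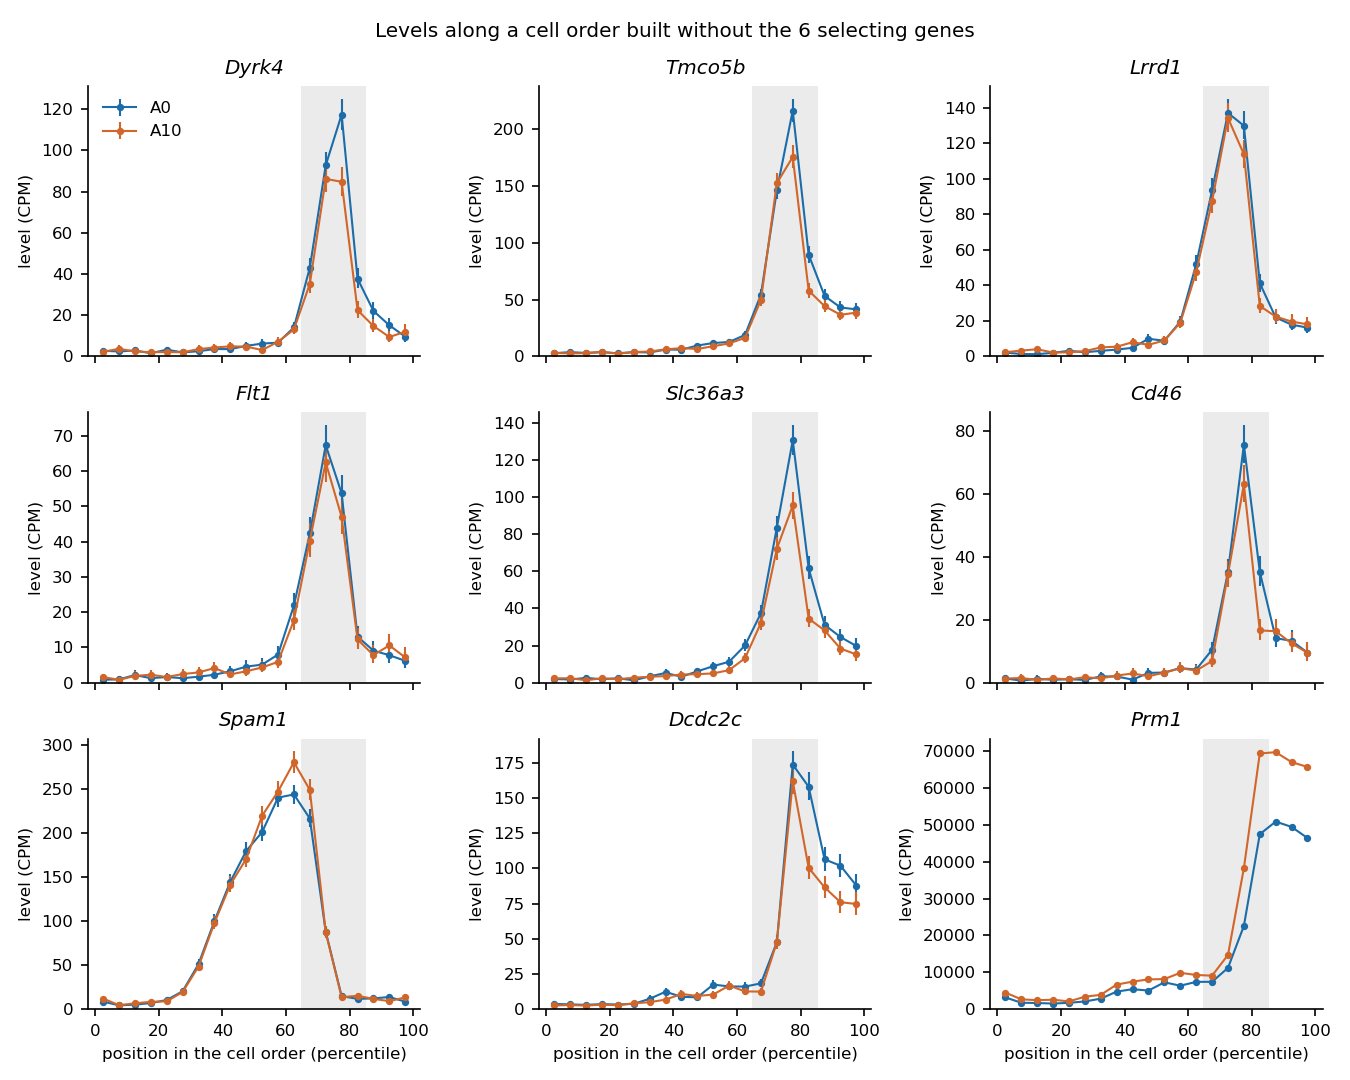
Levels (CPM, y axis, from 0) of the 6 selecting genes and of Spam1, Dcdc2c and Prm1 in bins of 5 percentiles of the cell order (x axis), for A0 (blue) and A10 (orange), with exact 95% counting intervals as bars. The grey band marks percentiles 65 to 85, where 569 A0 members and 553 A10 members lie; all 6 genes peak inside it, with Flt1 and Lrrd1 in the bin before Cd46.

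The members were not uniform. Of the 27 clusters of cells formed without the 6 genes, 5 held at least 10 members in each library. Cluster 15, led by Nim1k, Cd46 and Ptprr, held 289 A0 members and 240 A10 members, 85.3% and 83.6% of its cells. Cluster 18, earlier in the order and led by Gxylt2 and Flt1, held 158 and 123. Cluster 9, later in the order and led by Dcdc2c, held 95 and 130. Clusters 8 and 4 held 14 and 36 members in A0 and 64 and 36 in A10. The remaining members were few and included 5 A0 cells and 2 A10 cells of cluster 26, which was led by the Leydig cell genes Cyp17a1 and Insl3, and 2 A0 cells and 3 A10 cells of cluster 19, which was led by the premeiotic gene Stra8.

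From cluster 18 to cluster 15 to cluster 9, Flt1 in members went from 101 to 73.2 to 28.4 CPM in A0 and from 91.2 to 76.4 to 38.1 CPM in A10. Lrrd1 went the same way, from 185 to 112 CPM in A0 and from 191 to 141 CPM in A10 between the first and the last of the 3. Cd46 went the other way, from 51.9 to 95.3 to 97.7 CPM in A0 and from 55.0 to 76.4 to 99.3 CPM in A10. Slc36a3 went from 112 to 176 CPM in A0 and from 102 to 159 CPM in A10. Flt1, Lrrd1, Cd46 and Slc36a3 are all selecting genes. A member low in some of them had to be high in others, so opposite trends among members are partly set by the choice. Dcdc2c, which encodes a doublecortin-domain protein, went from 43.7 to 347 CPM in A0 and from 41.0 to 293 CPM in A10. It was not used to choose the cells, but it leads cluster 9, so its rise towards that cluster is no independent result. Prm1 went from 6731 to 28759 CPM in A0 and from 10152 to 37624 CPM in A10. Members of cluster 8 kept Spam1 at 277 CPM in A0 and 224 CPM in A10, while those of cluster 15 had it at 10.3 and 13.7 CPM. In cluster 4 the doublet caller marked 30.6% of A0 members and 50% of A10 members, against 3.8% or less in the other 4 clusters, and median UMIs were the highest of the 5 (21079.5 and 17262). Whether the members of cluster 4 are pairs of cells was not tested.

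**Figure D2:**
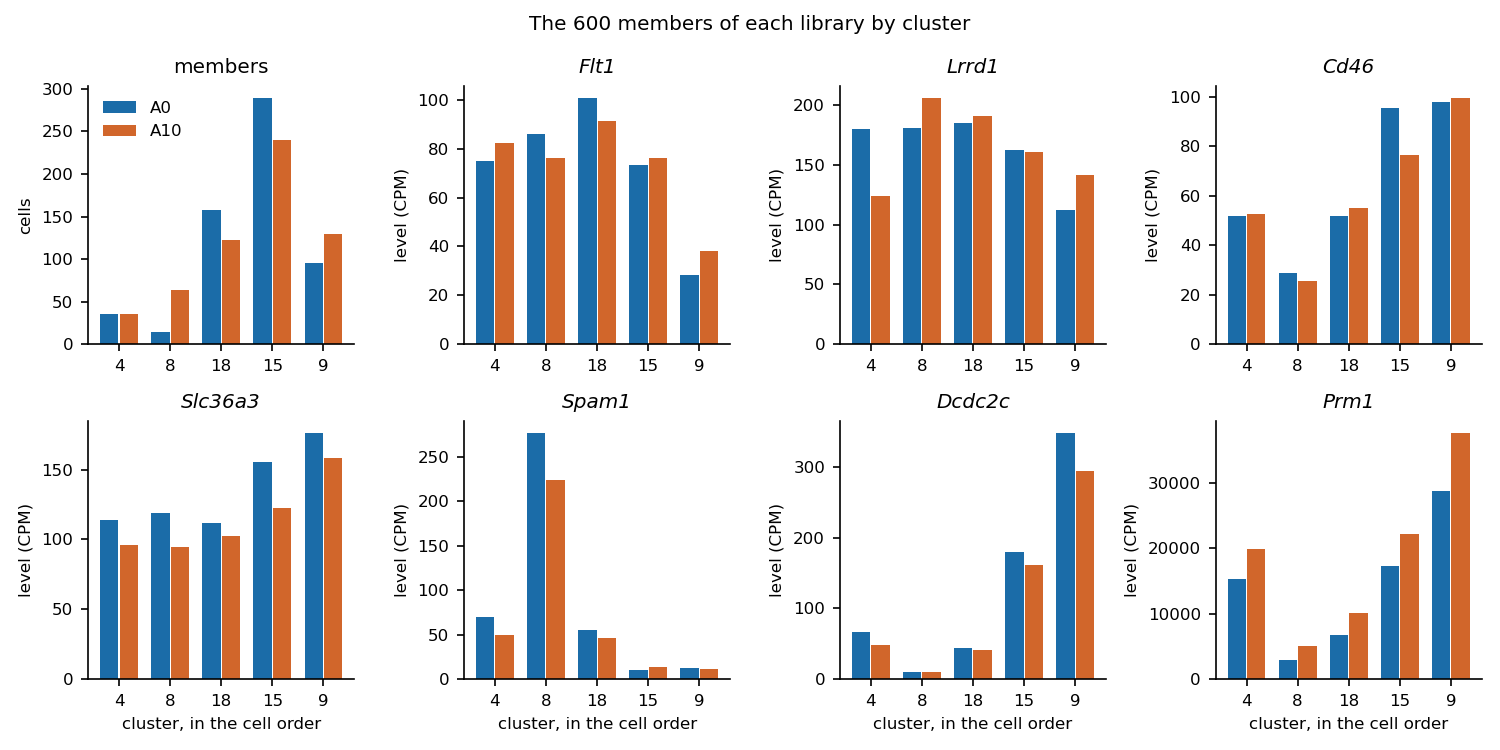
Number of members (first panel) and levels of 7 genes in members (CPM, y axes from 0) in the 5 clusters with at least 10 members per library, placed by median position in the cell order, for A0 (blue) and A10 (orange). Flt1 and Lrrd1 are lowest in cluster 9 in A0, where Cd46, Slc36a3, Dcdc2c and Prm1 are highest, and Spam1 is highest in cluster 8. Flt1, Lrrd1, Cd46 and Slc36a3 are selecting genes, so their opposite trends are partly set by the choice of members.

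Beyond the selecting genes, members were set against all other cells of the same library, as the log2 ratio of CPM with 1 CPM added, over genes seen in at least 5% of either set. Genes past 2-fold were counted. In A0, 1399 of 9675 genes (14.5%) were higher in members and 3474 (35.9%) were lower. In A10, 1433 of 9362 genes (15.3%) were higher and 3389 (36.2%) were lower. Because the selecting genes mark a stage, these counts describe the members and test nothing. The median ratio over all genes was -0.55 in A0 and -0.56 in A10, and the values of gene lists are read against it. With the libraries scaled to that median instead, 2573 genes were higher and 2124 lower in A0, and 2539 higher and 1947 lower in A10. The 2 libraries, each with members chosen on its own, gave nearly the same genes: 1255 were higher in both, 89.7% of the A0 genes and 87.6% of the A10 genes, 3189 were lower in both, and 0 were higher in one and lower in the other. Across the 9300 genes tested in both, Pearson's r of the ratios was 0.99, as a description over genes that are not independent.

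The genes that led the members were named as the 15 with the largest ratio in both libraries. Nim1k, a kinase related to AMPK, led with 103 CPM against 7.67 CPM in A0 and 80.2 CPM against 6.24 CPM in A10, log2 ratios of 3.59 and 3.49. Cd59b, an inhibitor of the membrane attack complex of complement, was at 175 CPM against 16.8 CPM in A0 and at 172 CPM against 16.1 CPM in A10. Ptprr, a receptor tyrosine phosphatase, was at 24.4 CPM against 1.60 CPM in A0 and at 20.9 CPM against 1.32 CPM in A10. These 3 were seen in 77.2%, 89.0% and 36.2% of A0 members.

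Col9a3, a collagen IX chain, was at 26.2 CPM against 1.88 CPM in A0 and at 23.0 CPM against 1.56 CPM in A10. Eaf1, a partner of the ELL transcription elongation factors, was at 87.1 CPM against 9.16 CPM in A0 and at 73.3 CPM against 6.95 CPM in A10. Osbpl7, an oxysterol-binding protein, was at 64.2 CPM against 6.58 CPM in A0 and at 51.3 CPM against 4.79 CPM in A10. The remaining 9 had ratios from 2.83 to 3.08 in A0 and from 2.85 to 3.03 in A10. Among these were Tmod1, which caps the slow end of actin filaments (134 CPM in A0 members), Slc12a3, a sodium chloride cotransporter (18.3 CPM), Kbtbd7, an adaptor of a ubiquitin ligase (41.4 CPM), and Tbx5, a T-box transcription factor (51.2 CPM). Cyb5d1, Pip5kl1, 4933406M09Rik, 2200002J24Rik and Gm5932 completed the group, with 2200002J24Rik at 391 CPM in A0 members and 385 CPM in A10 members.

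Since the members lie mostly between percentiles 65 and 85 of the order, they were also set against the other cells of that stretch, a window chosen after the data were seen. There, 569 members were compared with 1219 other cells in A0, and 553 with 1383 in A10. Of 8543 genes in A0, 228 (2.67%) were higher and 121 (1.42%) lower in members. Of 8079 genes in A10, 263 (3.26%) were higher and 56 (0.693%) lower. In both libraries 169 were higher, 74.1% of the A0 genes and 64.3% of the A10 genes, and 161 of them were also higher against all other cells in both. The 15 leading genes were all past 2-fold in the window in both libraries, though not within the cluster described below. They had been picked for the largest ratios of mostly the same members, so this describes them and tests nothing. Nim1k was at 103 CPM against 25.1 CPM in A0 and at 81.8 CPM against 21.01 CPM in A10. Cd59b was at 174 CPM against 58.7 CPM and at 172 CPM against 55.5 CPM. Within the window Prm1 was lower in members, at 15616 CPM against 23384 CPM in A0 and at 20602 CPM against 35769 CPM in A10, although it was higher than in all other cells of the library. Spam1 was lower too, at 30.7 CPM against 119 CPM and at 42.4 CPM against 122 CPM.

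**Figure D3:**
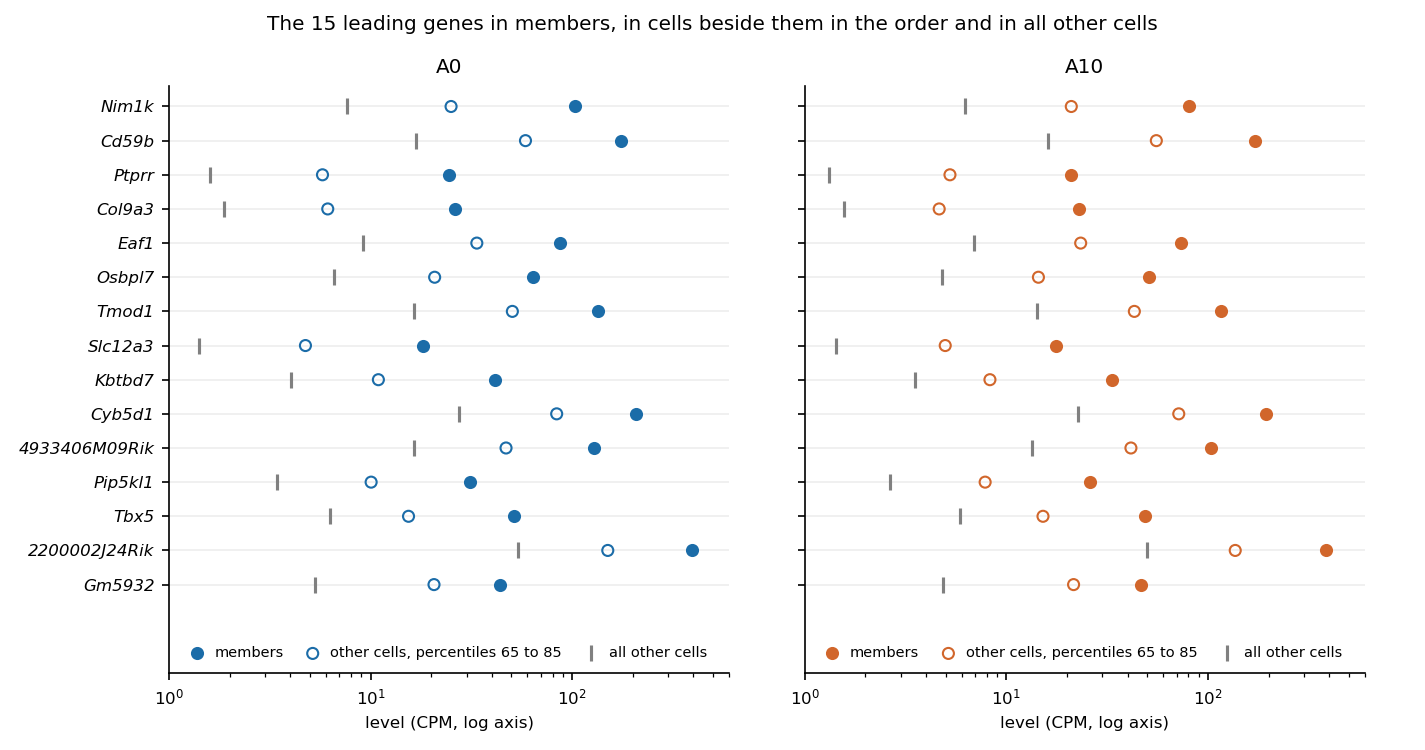
Levels (CPM, log x axis) of the 15 leading genes (y axis) in members (filled circles), in other cells at percentiles 65 to 85 of the order (open circles) and in all other cells (bars), in A0 (left) and A10 (right). For each gene the neighbours in the order lie between members and all other cells, as for Nim1k at 103, 25.1 and 7.67 CPM in A0.

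Within the cluster that held most members the contrast nearly ran out of cells, since 50 other cells in A0 and 47 in A10 stood against 289 and 240 members. There 282 of 8867 genes (3.18%) were higher in members in A0 and 479 of 8370 (5.72%) in A10, while 431 and 332 were lower. With 10 CPM added 2 and 7 genes were higher, and with 1200 members per library 3412 and 1609, so these counts carry little. The 8 genes with the largest ratio there, among them Fosb, Specc1 and Trpm6, were all at 7.60 CPM or less in members of that cluster, and their counting intervals included no difference in both libraries. The 15 leading genes were all less than 2-fold apart between members and other cells of the cluster in both libraries. Nim1k was at 128 CPM against 93.1 CPM in A0 and at 98.5 CPM against 97.7 CPM in A10.

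Genes for acrosomal proteins passed 2-fold in the members more often upwards than downwards. Of 25 tested genes for acrosomal contents and egg binding other than Cd46, 10 were higher and 2 lower in A0, and 11 higher and 2 lower in A10, with medians of 0.75 and 0.84. Over all genes 14.5% were higher and 35.9% lower in A0, and 15.3% and 36.2% in A10. Against the cells at percentiles 65 to 85 of the order, 0 of the 25 were higher and 1 was lower in each library. Of all genes there, 2.67% were higher and 1.42% lower in A0, and 3.26% and 0.693% in A10. Spaca6, needed for fusion with the egg, was at 131 CPM against 39.2 CPM in A0 and at 117 CPM against 34.1 CPM in A10. Izumo1, the sperm ligand of the egg receptor Juno, was at 267 CPM against 88.1 CPM and at 250 CPM against 77.9 CPM. Eqtn, an acrosomal membrane protein, was at 348 CPM against 123 CPM and at 345 CPM against 112 CPM. The 2 lower genes were Zpbp2, at 180 CPM against 736 CPM in A0 and 195 CPM against 749 CPM in A10, and Spam1, at 30.5 CPM against 84.4 CPM and 41.2 CPM against 85.3 CPM.

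Of 18 tested genes for acrosome building, 1 was higher in each library, and 8 in A0 and 7 in A10 were lower, with medians of -0.78 and -0.75. The share lower was near that over all genes (35.9% in A0 and 36.2% in A10). Fam209, a nuclear envelope partner of Dpy19l2 in anchoring the acrosome, was the higher one, at 1947 CPM against 585 CPM in A0 and at 2012 CPM against 559 CPM in A10. Dpy19l2 itself was lower, at 23.4 CPM against 93.2 CPM and at 24.3 CPM against 90.2 CPM. The Golgi proteins Golga3 and Gopc were lower as well, Golga3 at 12.8 CPM against 40.5 CPM in A0 and Gopc at 0.82 CPM against 13.9 CPM.

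The round spermatid list had 9 of 20 genes higher and 2 lower in A0 and 12 higher and 2 lower in A10, with medians of 0.98 and 1.07, where 14.5% (A0) and 15.3% (A10) of all genes were higher. Against cells at percentiles 65 to 85 of the order, 0 of the 20 were higher in either library. Spaca9 was at 2219 CPM against 691 CPM in A0 and at 2180 CPM against 631 CPM in A10. Tex33 was at 1754 CPM against 574 CPM and at 1629 CPM against 508 CPM. In the elongating spermatid list 3 of 20 genes in A0 and 4 in A10 were higher and 0 lower, with medians of 0.62 and 0.60. The share higher in A0 was about that over all genes. Against cells at percentiles 65 to 85 of the order 0 were higher, and the medians were -0.26 and -0.34. Ropn1, of the sperm fibrous sheath, was at 1925 CPM against 738 CPM in A0 and at 1775 CPM against 641 CPM in A10. Akap3, of the same sheath, was at 822 CPM against 357 CPM and at 693 CPM against 290 CPM. Hils1, a spermatid linker histone, was at 3218 CPM against 1242 CPM and at 3031 CPM against 1123 CPM. Of the transition protein and protamine genes, Prm1, Prm2, Tnp1 and Tnp2 were higher by less than 2-fold (log2 ratios from 0.39 to 0.63 in both libraries).

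Histone and chromatin genes were called in both directions. Of 17 tested histone variant and chromatin genes, 4 were higher and 3 lower in each library, with medians of 0.43 and 0.41. Over all genes 14.5% (A0) and 15.3% (A10) were higher and 35.9% and 36.2% lower, and in the window 0 of 16 were past 2-fold in either library. H1fnt, the other spermatid linker histone, was at 1666 CPM against 699 CPM in A0 and at 1480 CPM against 595 CPM in A10. Cdyl, a chromodomain protein that acts in histone acetylation and removal, was at 850 CPM against 247 CPM and at 856 CPM against 238 CPM. H2afz, a variant of meiotic and somatic chromatin, was at 104 CPM against 880 CPM and at 132 CPM against 956 CPM. H2afx, which marks broken DNA, was at 9.05 CPM against 48.3 CPM and at 9.60 CPM against 50.1 CPM.

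Of 18 spermatid transcription regulators, 3 were higher and 4 lower in each library, with medians of -0.07 and -0.18. The share higher was near that over all genes (14.5% and 15.3%), and 0 were higher in the window. Fhl5 (ACT), the coactivator of CREM, was at 1301 CPM against 378 CPM in A0 and at 1226 CPM against 325 CPM in A10. Sox30, a regulator of round spermatid genes, was at 214 CPM against 97.0 CPM and at 187 CPM against 83.2 CPM. Crem itself differed little, at 504 CPM against 457 CPM and at 452 CPM against 421 CPM. Tbpl1, a TBP-related factor, and Rfx2 were lower, Tbpl1 at 213 CPM against 938 CPM in A0 and Rfx2 at 29.2 CPM against 71.8 CPM.

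Genes of the tail and of the manchette, the microtubule sleeve that shapes the head, were lower about as often as all genes (35.9% in A0 and 36.2% in A10) or somewhat more often. Of 29 axoneme and tail genes, 1 was higher and 12 lower in each library, with medians of -0.51 and -0.57, close to the median of all genes. Tekt5, a tektin of the flagellum, was at 257 CPM against 78.5 CPM in A0 and at 226 CPM against 66.1 CPM in A10. Ccdc39, which sets the length of the axonemal repeat, was at 23.5 CPM against 237 CPM and at 27.1 CPM against 224 CPM. Of 27 manchette and head shaping genes, 3 were higher in each library, and 13 in A0 and 12 in A10 were lower, with medians of -0.82 and -0.76. The higher ones were Lzts2 (22.1 CPM against 3.02 CPM in A0), Clip1, a microtubule plus-end protein (330 CPM against 127 CPM), and Rangap1 (382 CPM against 162 CPM). Iqcg was among the lower ones, at 20.5 CPM against 143 CPM in A0 and at 25.8 CPM against 151 CPM in A10. In the window 0 of 28 axoneme and tail genes were past 2-fold in either library. Of 26 manchette and head shaping genes there, 1 was higher and 0 lower in each, where 2.67% and 3.26% of all genes were higher.

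Of 18 sperm ion channel and transporter genes, 4 were higher and 9 lower in A0 and 5 higher and 8 lower in A10, with medians of -0.57 and -0.58, close to the medians of all genes. Over all genes 14.5% and 15.3% were higher and 35.9% and 36.2% lower, and in the window 0 of 17 were past 2-fold in either library. Lrrc52, a subunit of the sperm potassium channel SLO3, was at 104 CPM against 40.3 CPM in A0 and at 95.6 CPM against 33.2 CPM in A10. Efcab9, a calcium sensor of the CatSper channel, was at 758 CPM against 299 CPM and at 760 CPM against 287 CPM. Catsper2, a pore subunit of that channel, was lower, at 98.8 CPM against 273 CPM and at 91.6 CPM against 266 CPM.

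**Figure D4:**
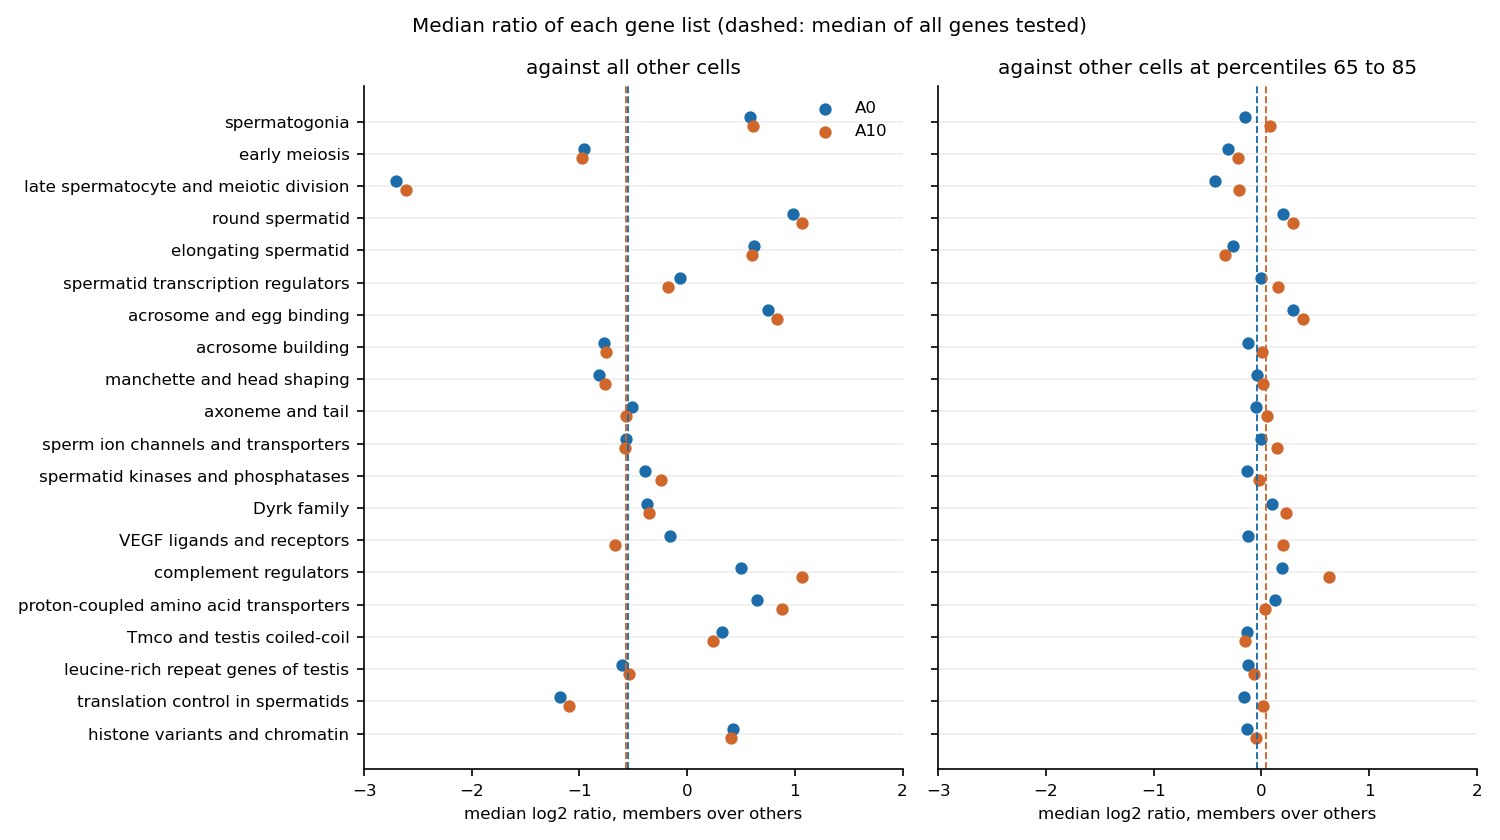
Median log2 ratio of members over other cells (x axis) for 20 gene lists without the selecting genes (y axis), against all other cells of the library (left) and against other cells at percentiles 65 to 85 of the order (right), in A0 (blue) and A10 (orange); dashed lines are the medians of all genes tested. The late spermatocyte and meiotic division list lies lowest on the left (-2.70 in A0 and -2.61 in A10), and on the right most lists lie near the dashed lines.

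The families of the selecting genes were looked at for their other members. Of 23 tested kinases and phosphatases of spermatids other than Dyrk4, 2 were higher and 6 lower in A0 and 3 higher and 7 lower in A10, with medians of -0.39 and -0.24. Neither share exceeded that over all genes (14.5% and 15.3% higher, 35.9% and 36.2% lower), and in the window 0 were higher and 1 was lower in each library. The kinase genes Tssk1, which is testis-specific, and Camk4, a calmodulin-dependent kinase also known from brain and T cells, were higher in both libraries, Tssk1 at 1212 CPM against 583 CPM in A0 and Camk4 at 190 CPM against 91.7 CPM. Stk31 was at 3.10 CPM against 46.9 CPM in A0 and at 4.8 CPM against 55.3 CPM in A10. In the DYRK family, Dyrk2 was higher, at 58.1 CPM against 27.7 CPM and at 55.9 CPM against 23.2 CPM. Dyrk3 was at 228 CPM against 350 CPM in A0, and Dyrk1b at 76.1 CPM against 99.1 CPM, both less than 2-fold apart. In the window 0 of the 3 DYRK genes tested other than Dyrk4 were past 2-fold in either library.

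Other complement regulators were counted beside Cd46. Of 7 further regulators tested in A0 and 6 in A10, 3 were higher and 0 lower in each, with medians of 0.50 and 1.07, where 14.5% and 15.3% of all genes were higher. These were Cd59b, Cd59a, at 155 CPM against 23.6 CPM in A0 and at 174 CPM against 24.6 CPM in A10, and Cd55, which speeds the decay of complement convertases, at 108 CPM against 27.1 CPM and at 97.1 CPM against 21.6 CPM. Cd59a and Cd59b are neighbouring copies on chromosome 2, as Cd55 and Cd55b are close paralogs, and how reads were split between such copies was not checked. Cd55b was at 180 CPM against 223 CPM in A0. In the window, 2 regulators in A0 and 3 in A10 were past 2-fold, where 2.67% and 3.26% of all genes were higher.

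Other VEGF genes were mostly seen in too few cells to compare. Of the other VEGF ligands and receptors, 4 were seen often enough to test in A0 and 2 in A10, with 0 higher and 1 lower in each, where 35.9% and 36.2% of all genes were lower. The lower one was the ligand gene Pgf, at 0.65 CPM against 4.63 CPM in A0 and at 0.78 CPM against 4.23 CPM in A10. The receptor gene Kdr was at 3.02 CPM against 3.18 CPM in A0, and Nrp1, Vegfc and Vegfd were at 0 in members of both libraries. The endothelial gene Emcn was likewise at 0 in members of both libraries, and Pecam1 in those of A0. Summed, however, the endothelial list was higher in members, at 11.2 CPM against 8.66 CPM in A0 and 11.0 CPM against 7.63 CPM in A10.

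Among amino acid transporters related to Slc36a3, 3 of 7 in A0 and 2 of 6 in A10 were higher and 0 lower, where 14.5% and 15.3% of all genes were higher. In the window 0 of 7 were higher in either library. Slc38a9, the lysosomal arginine sensor, was at 121 CPM against 57.1 CPM in A0 and at 117 CPM against 54.7 CPM in A10. Slc36a1 was at 4.40 CPM against 0.97 CPM and at 3.33 CPM against 0.83 CPM. The next 2 lists had shares near or below those over all genes (14.5% and 15.3% higher, 35.9% and 36.2% lower), and in the window 0 of their genes were higher in either library. Of 13 Tmco and testis coiled-coil genes, 2 were higher and 4 lower in each library, the higher ones being Tmco2, at 1337 CPM against 546 CPM in A0, and Tmco5, a relative of Tmco5b, at 909 CPM against 440 CPM. Of 17 leucine-rich repeat genes of the testis, 2 were higher in each library, and 5 in A0 and 4 in A10 were lower. Lrrc69 was the highest of these, at 140 CPM against 31.4 CPM in A0 and at 115 CPM against 24.5 CPM in A10. The other higher gene was Lrrc52.

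Genes of late meiosis were low in the members. Of 14 late spermatocyte and meiotic division genes, 0 were higher and 13 lower in each library, with medians of -2.70 and -2.61, where 35.9% and 36.2% of all genes were lower. Against cells at percentiles 65 to 85 of the order, 1 of 13 was lower in A0 and 0 of 12 in A10, with medians of -0.43 and -0.21, so this was not particular to the members. Cdk1, the kinase of cell division, was at 5.05 CPM in A0 members against 72.0 CPM and at 7.83 CPM against 74.2 CPM in A10. Aurka, a kinase of the spindle poles, was at 23.2 CPM against 251 CPM and at 26.5 CPM against 254 CPM. Ldhc, the germ cell lactate dehydrogenase, was the gene of this list that did not pass, at 7087 CPM against 7860 CPM in A0. Of 13 early meiosis genes, 0 were higher and 6 lower, with medians of -0.96 and -0.97, a share not far above that of all genes. In the window 0 of 12 in A0 and 0 of 11 in A10 were lower. Hormad1 was at 6.60 CPM against 62.7 CPM and at 8.71 CPM against 70.8 CPM. Of 5 spermatogonial genes that could be tested, 1 was higher in A0 and 2 in A10, and 1 was lower in each, with medians of 0.59 and 0.61. With so few genes this is close to the shares over all genes. Id4 was lower, at 10.0 CPM against 37.2 CPM in A0. Sohlh1 was higher in both libraries, at 9.95 CPM against 2.31 CPM in A0, and Gfra1 passed 2-fold in A10, at 6.66 CPM against 2.10 CPM.

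Of 22 genes for translation control in spermatids, 1 was higher in each library, and 12 in A0 and 11 in A10 were lower, with medians of -1.18 and -1.10. Over all genes 14.5% and 15.3% were higher and 35.9% and 36.2% lower, and in the window 0 of 21 (A0) and 0 of 20 (A10) were lower. Ybx3 and Ybx2, which hold messages in store, were at 384 and 341 CPM against 1085 and 864 CPM in A0. Paip2b, an inhibitor of poly(A)-binding protein, was the higher one, at 137 CPM against 28.4 CPM in A0 and at 126 CPM against 26.9 CPM in A10. Its relative Paip2 was at 972 CPM against 611 CPM in A0.

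The 10 genes lowest in members in both libraries had log2 ratios from -4.04 to -3.42 in A0 and from -3.72 to -3.41 in A10. Mphosph8, of a gene-silencing complex, was at 5.05 CPM against 98.3 CPM in A0 and at 9.30 CPM against 111 CPM in A10. Sgol2a, which protects cohesion at centromeres in meiosis, was at 2.2 CPM against 44.2 CPM and at 2.45 CPM against 44.6 CPM. Pabpc6, Atxn7l3b, Rfx8, Mllt10, Cdc42ep3, Nol8, Phf2 and Arl6ip1 made up the rest. Of these 10 genes, 0 were past 2-fold in both libraries in the window.

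Cells picked in the same way on neighbouring marker pairs overlapped the members to different extents. Of the 600 cells highest in Dcdc2c and Hemgn, 224 in A0 and 235 in A10 were members (37.3% and 39.2% of either set, since both hold 600), and their median percentile in the order was 83.0 and 82.8. Of the 600 highest in Spam1 and Tssk5, 2 and 6 were members, with median percentiles of 57.0 and 58.8. Of the 600 highest in Odf1 and Tssk6, 16 and 15 were members, with median percentiles of 86.7 and 86.5. Cd46 was at 61.8 CPM in the A0 cells highest in Dcdc2c and Hemgn, and at 1.9 CPM in those highest in Spam1 and Tssk5. Flt1 differed less, at 25.6 and 11.3 CPM in the same A0 sets. The shared members are part of these levels.

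The comparison of A10 with A0 asks whether AOS alone went with a difference in these cells. Taking 600 cells from each library fixes their number, so a common limit was also used. At or above the lowest A0 member score lay 600 cells of A0 (6.71%, interval 6.20 to 7.25) and 448 cells of A10 (4.63%, 4.22 to 5.06). The A10 library was shallower, with a median of 10948 UMIs per cell against 12685. With every cell thinned to 5000 UMIs, at least 3 of the 6 genes were seen in 6.54% of A0 cells (6.04 to 7.08) and 4.69% of A10 cells (4.28 to 5.13). At least 4 were seen in 2.47% (2.16 to 2.82) and 1.60% (1.36 to 1.87). The A0 number at the score limit is fixed by the choice of members, and its interval is no sampling interval. Since the spread between libraries of one group was not measured, the shares are given as values of these 2 libraries.

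Among the selecting genes, the levels of A10 and A0 members were well within 2-fold of each other. Log2 ratios with 1 CPM added, with the counting interval of the ratio without that addition, were -0.24 for Dyrk4 (interval -0.35 to -0.13), -0.24 for Slc36a3 (-0.35 to -0.14), -0.18 for Cd46 (-0.33 to -0.05), -0.11 for Tmco5b (-0.19 to -0.03), 0.02 for Lrrd1 (-0.08 to 0.11) and -0.03 for Flt1 (-0.17 to 0.11). These values were chosen in each library by the rule and carry no test. In the other cells the same ratios ran from -0.48 to -0.15.

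Over the other genes few differed by 2-fold between A10 and A0 members. Of 8449 genes, 8 (0.0947%) were more than 2-fold higher and 19 (0.225%) lower in A10 members, and the median ratio was -0.03. In the other cells of the libraries 3 of 8975 genes (0.0334%) were higher and 5 (0.0557%) lower. Those sets held more UMIs, 1.39e+08 in A0 and 1.34e+08 in A10, against 1.23e+07 and 1.02e+07 in members. Counting error is thus larger in members, and the 2 shares are not like for like. Of the 27 genes past 2-fold in members, 6 were past it in the same direction in other cells. Some of the 27 passed the filter on low genes only through the library in which they were higher. With 300 members per library 17 genes were higher and 52 lower, and with no filter on low genes 14 and 33. With 10 CPM added before the ratio, 1 gene was higher and 0 were lower. The highest level of any of the 27 in either set of members was 40.6 CPM, that of BC029214. The 2 sets of members also differed in their mix of clusters. Cluster 8 held 14 A0 and 64 A10 members, cluster 15 held 289 and 240, and cluster 9 held 95 and 130. The part of this mix in the gene differences was not tested.

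The higher genes included BC029214, at 12.7 CPM in A0 members and 40.6 CPM in A10 members (log2 ratio 1.60), against 5.24 and 11.3 CPM in other cells. Gss, glutathione synthetase, was at 11.4 CPM in A0 members and 27.8 CPM in A10 members (1.21), against 6.25 and 11.7 CPM in other cells (0.81). Shtn1, a regulator of neuronal polarity, was at 12.5 and 30.3 CPM in members (1.21). Both messages were thus also more abundant in the other cells of A10, by less than 2-fold.

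Mrgpra2b was at 1.39 and 6.36 CPM in A0 and A10 members, Mbp at 2.53 and 8.13 CPM, Nsfl1c at 2.69 and 6.76 CPM and Gstt3 at 1.55 and 4.31 CPM. Speer1, of a large family of near-identical copies, was at 5.14 and 14.9 CPM in members and at 33.1 and 115 CPM in other cells. Its difference was larger in the other cells (1.77) than in members (1.37).

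The lower genes were led by 1600014C10Rik, at 10.8 CPM in A0 members and 0.88 CPM in A10 members (log2 ratio -2.64). It was at 7.18 and 0.78 CPM in other cells (-2.2), and was seen in 17.2% of A0 members and 1.33% of A10 members. Hist1h2bc, a core histone gene, was at 23.5 and 8.71 CPM (-1.33), and 4930474N05Rik at 34.5 and 13.2 CPM (-1.32). Pcdh9, Fam131c, Ppp1r14c, Rtkn2 and Nectin4 were at 4.57 to 10.7 CPM in A0 members and 0.88 to 3.33 CPM in A10 members. All 8 were lower in the other cells of A10 as well, by log2 ratios from -2.2 to -0.69. Prm1 was at 16124 CPM in A0 members and 21367 CPM in A10 members (0.41), and at 11971 and 16273 CPM in other cells. No list had more than 1 gene past 2-fold between A10 and A0 members.

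**Figure D5:**
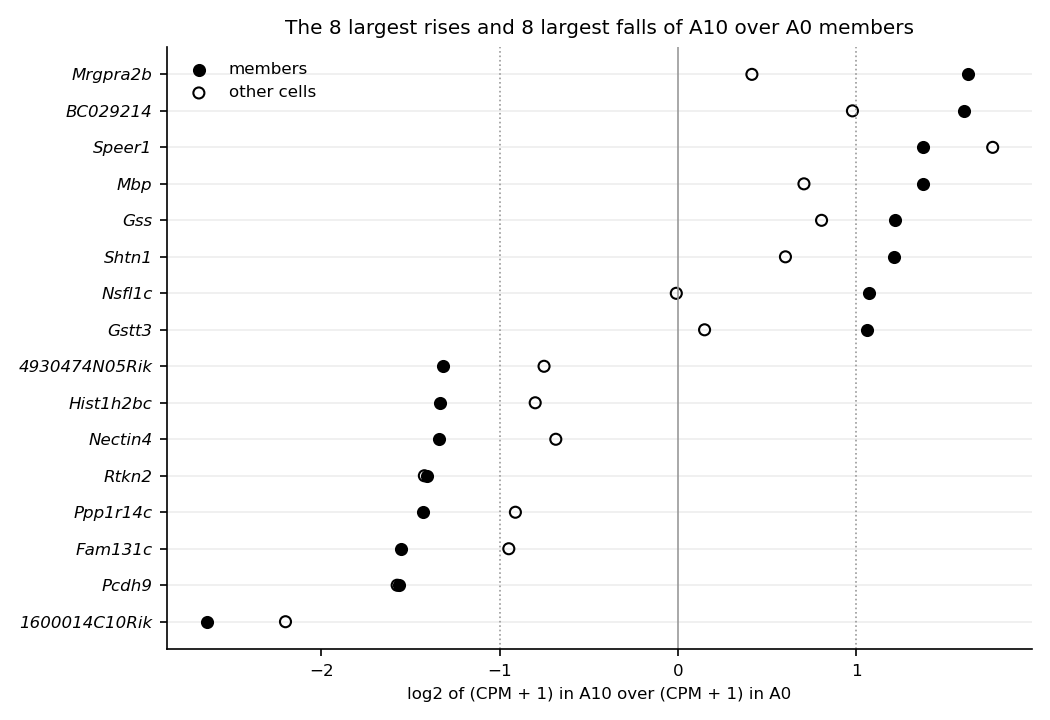
Log2 ratio of A10 over A0, with 1 CPM added (x axis), for the 8 genes highest and the 8 lowest in A10 members against A0 members (y axis), in members (filled circles) and in other cells (open circles); dotted lines mark 2-fold. All 8 lower genes are also lower in other cells, and Nsfl1c, at 1.07 in members and -0.01 in other cells, is not higher there.

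The busulfan libraries held almost none of these cells. At or above the lowest A0 member score lay 0 of 4659 cells of B0, which allows a share of up to 0.079%, and 6 of 3778 cells of BA10 (0.159%, interval 0.058 to 0.345). Tmco5b was at 0.355 CPM in all cells of B0 and 0.821 CPM in all cells of BA10, against 36.5 and 29.8 CPM in A0 and A10. The highest of the 6 genes was Flt1 in B0, at 2.76 CPM against 13.3 CPM in A0. In BA10 it was Lrrd1, at 2.04 CPM against 29.7 CPM in A0. The median cell of B0 held 4214 UMIs and that of BA10 17989 UMIs, against 12685 in A0. The limit for B0 thus covers only cells that reach this score at the lower depth of B0, while BA10 was not shallower than A0.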

How the data were processed

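Single-cell RNA-seq libraries of testis cells from 4 groups of mice were used, A0 and A10 for all comparisons and B0 and BA10 for the number of cells. The submitters' processing notes name Cell Ranger 2.2.0 and build mm10. In the table deposited by the authors, the UMI counts of each cell had been scaled to a total of 10000 and stored as the natural log of the scaled value plus 1. The table held 18419 genes and 27060 cells and no mitochondrial genes. Dividing each cell by its smallest step gave back UMIs, and 100% of values were whole within 0.001.

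The members and the gene lists were chosen with earlier results of these data known. UMIs were summed per set of cells and expressed as CPM, and genes seen in at least 5% of the cells of either set were compared as log2((CPM + 1)/(CPM + 1)). Past 2-fold was counted. With 1 library per group, no test was run, and counting intervals (95%; exact Poisson, Clopper-Pearson, and conditional binomial for ratios without the added 1) cover counting error only. Median UMIs per cell were 12685 (A0), 10948 (A10), 4214 (B0) and 17989 (BA10).

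The 6 selecting genes were left out before 2000 variable genes, 30 principal components, Leiden clusters (15 neighbours, resolution 1) and diffusion pseudotime (30 neighbours) were computed. Cells called doublets by Scrublet (expected rate 6%) were kept and counted. Where stated, cells were thinned to 5000 UMIs. The common score limit and the stretch from percentile 65 to 85 were chosen after the data were seen. Named genes were the 6 selecting genes, the 15 highest and 10 lowest in members (the smaller ratio of both libraries, seen in at least 10% of cells), 8 in each direction between A10 and A0 members, 8 within the cluster and up to 4 per list. Further genes named in the lists were chosen after their values were seen. Gene positions were taken from GENCODE M21, in which 17521 symbols matched 1 gene, and promoters from RefSeq (GRCm38.p6). The log2 ratios, the calls past 2-fold and the intervals of ratios were tested on simulated counts, and the other steps were not. Python 3.11.15 was used with numpy 2.4.6, scipy 1.17.1, pandas 2.3.3, scanpy 1.11.5, scikit-learn 1.9.0, leidenalg 0.10.2 and matplotlib 3.10.9.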

Additional observations from a re-analysis of the deposited data

How the results depend on the processing

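Of the recomputed counts and median percentiles, 115 stayed close and 40 moved, where a count was taken as close within 1.5 times and a median percentile within its own 95% interval over members. That interval treats cells of 1 library as units and serves only as a label. It called shifts as small as from 75.3 to 75.7 (A10, 300 members) moved. Scoring by the share of UMIs, by genes divided by their SD or without Dyrk4, Cd46 or Flt1 moved none, nor did means over cells, 1000 variable genes or the common score limit, which was chosen after the data were seen. With 300 members per library, 17 genes were higher and 52 lower in A10 than in A0 members, 70 (A0) and 161 (A10) were higher in members than in other cells of the same cluster, and the median percentile in A10 was 75.7. With 1200 members, 12 genes were lower in A10 members, 3412 and 1609 were higher within the cluster, and the median percentiles were 74.8 and 74.3. With cells thinned before the score, 90 and 142 genes were higher within the cluster and the percentiles were 75.5 and 74.9. Without cells called doublets, 524 genes were higher within the cluster in A0. With 10 CPM added, 716 and 766 genes were higher and 1619 and 1599 lower in members, 694 were higher in both libraries, 1 was higher and 0 were lower in A10 members, and 2 and 7 were higher within the cluster. With no filter on low genes, 14 were higher and 33 lower in A10 members, and 830 and 1191 were higher within the cluster. Scaling to the median ratio gave 2573 and 2539 genes higher and 2124 and 1947 lower, so that more were higher than lower, and 2364 higher in both libraries. Ordered by the first principal component, members had median percentiles of 81.7 and 81.4. Against cells between percentiles 65 and 85 alone, a stretch chosen after the data were seen, 228 and 263 genes were higher, 121 and 56 lower, and 169 higher in both libraries. More were thus higher than lower there too, and Prm1 turned from higher to lower in members (log2 -0.58 and -0.80). The cause of these shifts was not tested.

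No paired analysis was possible because each group is 1 library. Leaving out a library was not possible for the same reason. Counts of genes between A10 and A0 members rest on genes at or below 40.6 CPM (BC029214), and the counts within the cluster rest on 50 and 47 other cells, which limits both.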

Other observations

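Genes of the X chromosome, which is silenced in spermatocytes and becomes active again in spermatids, were described in the members as well. They took 1.67% of the UMIs of A0 members and 0.827% of those of other A0 cells, and 1.71% and 0.814% in A10. In the cluster richest in early meiosis genes the shares were 0.102% and 0.117%. Of 253 X genes tested in A0, 100 were more than 2-fold higher in members and 16 lower, with a median log2 ratio of 0.84. Of 246 in A10, 105 were higher and 11 lower, with a median of 0.92. Over all genes 14.5% in A0 and 15.3% in A10 were higher, 35.9% and 36.2% were lower, and the medians were -0.55 and -0.56. Genes of the Y chromosome took 0.0238% of the UMIs of A0 members against 0.0174% of those of other cells, and 0.0225% against 0.0151% in A10. Of 14 Y genes tested in A0, 2 were higher and 0 lower, and of 12 in A10, 4 were higher and 0 lower. The A0 share of Y genes higher is about that over all genes and the A10 share is above it. Both rest on few genes. The other cells include the early meiosis cluster, where the X share was the lowest of those given. X and Y genes were not counted as sets against the other cells of the stretch of the order where most members lie. Whether these differences are particular to the members or shared with their neighbours in the order was thus not tested. Many X and Y genes of the testis are multicopy, and how reads were split between copies was not checked.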
